A study of Mus musculus with 24 samples.

Results

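The comparison described here asked which genes were moved the same way by let-7 and by miR-125. Either microRNA was given to glial progenitor cells labelled as Dgcr8 knockouts, and their own microRNAs were not measured here. It rests on 6 arrays of the 19 in the series, all from hybridization 3: 2 arrays labelled Dgcr8 KO + Let7, 2 labelled Dgcr8 KO + miR125 and 2 labelled Dgcr8 KO + Mock, which carry the replicate numbers 2 and 3. The 6 arrays were normalized together, the mean of the let-7 and miR-125 arrays was set against mock with the replicate number as a block, and 9933 genes were tested. All 6 samples were mouse glial progenitor cells derived from embryonic stem cells. Their Dgcr8 flox/delta genotype, a conditional allele opposite a deleted one, had been turned into a knockout by tamoxifen, given at 1 uM for 16 hours and then at 100 nM for 16 hours. Mock cells had the same genotype and the same tamoxifen as the microRNA cells, and all were kept in N2 medium with EGF and FGF. Per the labels, replicates 2 and 3 are separate tamoxifen treatments, and the cells may be 1 cell line. With the treatment as a block, the p-values measure how far the group differences varied between these 2 treatments, with variances moderated over genes. The labels do not say which member of either microRNA family was given, how it was given or how long before RNA extraction.

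Dgcr8 encodes the RNA-binding partner of Drosha in the microprocessor, which trims primary microRNA transcripts in the nucleus, and cells without it lack almost all microRNAs. A microRNA lowers its targets by pairing, mostly through the seed at its 5′ end, with sites in their 3′ untranslated regions, which shortens the life of the messenger RNA and represses its translation. Let-7 is known for rising as progenitors mature and for repressing growth and early developmental genes, and miR-125, the relative of worm lin-4, is often produced from the same transcripts. According to its title the series concerns the cooperation of both in the formation of astrocytes.

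The mature sequences below, from RefSeq on GRCm38.p6, are shown because the 2 families do not share a seed. Capitals mark the seed, bases 2 to 8. The 8 let-7 sequences found under their usual 5p names share 1 seed, the 2 miR-125 sequences share another, and the seeds have the same letter at 2 of 7 positions. The let-7e and miR-125a genes lie on the same strand at chr17:17830366-17830387 and chr17:17830817-17830840. One copy of let-7c and one of miR-125b lie on the plus strand at chr16:77599672-77599693 and chr16:77646279-77646300, and 1 let-7a gene lies on the minus strand at chr13:48538239-48538260. Since the labels name no member, it is not known which of these sequences the cells received.
let-7a-5p: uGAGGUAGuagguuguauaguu
let-7c-5p: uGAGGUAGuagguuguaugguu
let-7e-5p: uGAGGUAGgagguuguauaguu
miR-125a-5p: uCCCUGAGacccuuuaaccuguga
miR-125b-5p: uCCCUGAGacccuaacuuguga

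Between 12435 and 13129 of 25697 probes were detected on each of the 6 arrays (detection p under 0.05), and the mean raw signal lay between 756 and 868. Array pairs correlated at 0.985 to 0.991. The progenitor genes Nes, Vim, Sox2, Sox9 and Fabp7 were detected on all 6 arrays, as were Olig2, Egfr and Aqp4. The astrocyte filament gene Gfap was detected on none. Of other cell types, Cx3cr1, Ptprc and Pecam1, which mark microglia, leukocytes and endothelium, were detected on none, while the microglial gene Aif1 was detected on both miR-125 arrays and on no other. The smooth muscle gene Acta2 was detected on all 6 arrays, and the pluripotency gene Pou5f1 on 3, 1 in each group. Of the 10 microglia and macrophage markers 1 passed the filter, and 3 of the 10 endothelial and pericyte markers did. So did 6 of the 15 mesenchymal and smooth muscle markers and 6 of the 11 pluripotency markers. Dgcr8 itself had a log2 signal of 7.86 and 7.97 with let-7, 8.28 and 7.32 with miR-125, and 8.03 and 7.55 with mock, so it did not separate the groups, all of which carry the deletion, and whether its probe lies in the deleted part was not tested.

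Cdkn2b, Ccl11, Lmo2 and Fgf1 were among the genes farthest above mock, and Mmp11, Atxn1, Runx1t1 and Prtg lay below it, with either microRNA. With 2 arrays a group, however, no gene passed the test set for the mean of both microRNAs. Limma with a constant prior variance called 0 of 9933 genes (0%) at an adjusted p under 0.05, and the smallest adjusted p was 0.158. At an unadjusted p under 0.05 there were 955 higher genes (9.61%) and 945 lower genes (9.51%). Let-7 alone and miR-125 alone against mock also gave 0 calls each, with 1627 (16.4%) and 2182 (22.0%) genes at an unadjusted p under 0.05. Genes are therefore described below by their values, and "higher" and "lower" report signs and sizes, not calls.

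Calls appeared under other settings of the same contrast. With the prior variance allowed to follow the signal level, limma called 1105 genes (11.1%), 594 higher (5.98%) and 511 lower (5.14%), and 2427 (24.4%) lay at an unadjusted p under 0.05. In a fit of all 10 knockout arrays of hybridizations 2 and 3, which adds replicate 1, it called 1246 of 10506 genes (11.9%), 648 higher (6.17%) and 598 lower (5.69%), with 3298 (31.4%) at an unadjusted p under 0.05. That fit counts the mock arrays of replicate 1 in hybridization 2 and in hybridization 3 as 2 samples, and whether both hold 1 RNA is not stated. It also holds the 6 arrays fitted above, so genes picked on those arrays are favoured in it. Of the 9856 genes tested in both fits, 1224 passed in the mean of the 10 arrays. In that fit 205 of these also passed in each microRNA's own comparison, always with the same sign, and 77 of them were lower. Another 679 passed with miR-125 only, 175 with let-7 only and 165 in neither comparison, so a called mean need not come from both microRNAs. Both comparisons share the mock arrays, which by itself pulls their signs together.

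The genes of the shared shift were taken as those with the same sign in all 4 same-number pairs, that is each microRNA array minus the mock array of the same replicate, and with a difference of at least 1.5-fold in both groups. The pair criterion alone was met by 1586 genes higher (16.0%) and 1859 genes lower (18.7%). Adding the fold criterion left 179 genes (1.80%), of which 114 were higher (1.15%) and 65 lower (0.654%). Scaling by medians instead of quantiles gave 156 higher and 40 lower, so the balance of directions depends on the scaling. The log2 threshold is 0.585. Just inside it on the higher side lay Vps37d (0.585 in the weaker group) and Rab32 (0.588), and just outside Slc44a4 (0.582) and Them4 (0.582). On the lower side Clp1 (0.592) and Rin1 (0.592) lay just inside, and Ssb (0.584) and Ifna1 (0.582) just outside.

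**Figure D1:**
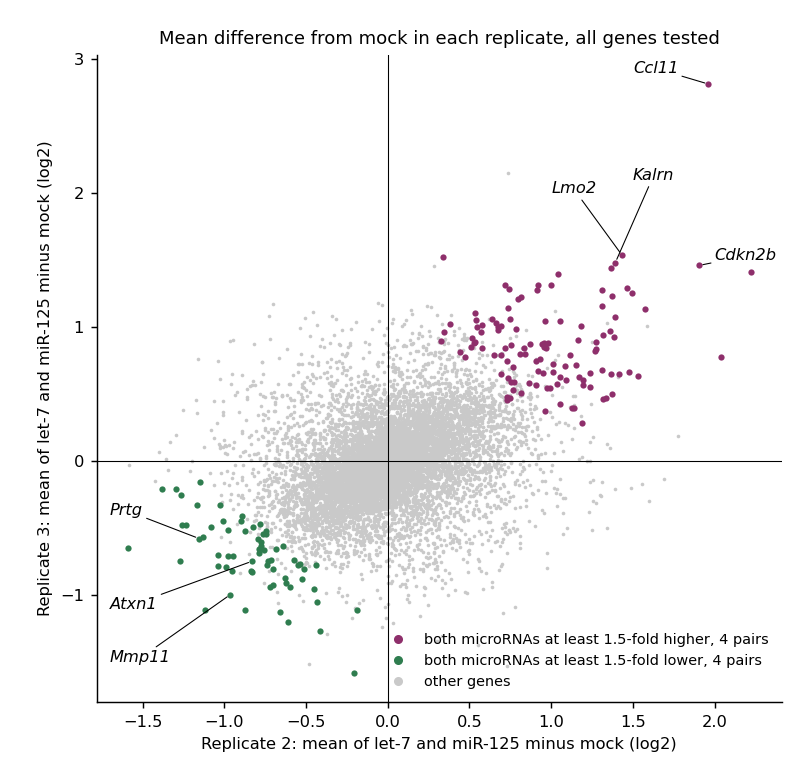
Mean of the let-7 and miR-125 arrays minus mock (log2) in replicate 2 (horizontal axis) and in replicate 3 (vertical axis), 1 point for each of the 9933 genes tested. The 114 genes at least 1.5-fold higher with both microRNAs are purple and the 65 lower ones green, and by their definition they fall in the corner quadrants. Ccl11 and Cdkn2b lie farthest from 0 among the genes labelled.

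The range of the set was wider upward than downward. Mean differences of the 114 higher genes ran to 2.39 on the log2 scale, and those of the 65 lower genes reached -1.12. Let-7 was the stronger group for 56 higher genes and miR-125 for 58, and for the lower genes the split was 32 and 33. On the array signals themselves, all 4 microRNA arrays lay above both mock arrays for 104 of the 114 and below both for 58 of the 65. The choice of the set on these arrays largely fixes that separation, so nothing is read from it, and over all genes the shares were 9.20% and 10.1%. For 23 of the higher genes no mock array was above background, and for 9 of the lower genes no microRNA array was, so their differences are known only as bounds.

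Cdkn2b, which encodes the p15 inhibitor of the cyclin D-dependent kinases and so restrains entry into S phase, had the smallest p among genes above 1.5 on the log2 scale. Its log2 signal was 10.9999 and 10.79 with let-7, 10.66 and 10.28 with miR-125, and 8.92 and 9.07 with mock. All 4 microRNA arrays lay more than 1 log2 unit above both mock arrays. The mean difference was 1.69 ± 0.14 (SE, n = 2 per group), or 3.22-fold, with an unadjusted p of 7.96e-05 and an adjusted p of 0.158 in limma. By group the difference was 1.90 with let-7 and 1.47 with miR-125. Replicate 1, which the fit did not use, gave 2.09 with let-7 and 1.65 with miR-125. Over 10 arrays Cdkn2b rose by 1.75 ± 0.10, with the smallest limma adjusted p of all genes there (0.00713).

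Atxn1, which encodes ataxin 1, a chromatin-associated corepressor, had a log2 signal of 7.86 and 8.04 with let-7, 7.87 and 8.21 with miR-125, and 8.70 and 8.87 with mock. Both mock arrays lay above all 4 microRNA arrays, and the let-7 and miR-125 arrays overlapped each other. The mean difference was -0.79 ± 0.11 on the log2 scale, 1.73-fold lower, at an unadjusted p of 6.91e-04 and a limma adjusted p of 0.169. Replicate 1 showed larger differences of -1.29 with let-7 and -1.37 with miR-125, and in the 10 arrays Atxn1 fell with a limma adjusted p of 0.0193 (-1.02 ± 0.12).

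Prtg encodes protogenin, a cell surface protein of the immunoglobulin superfamily made in the early neural tube, and is in the list of known let-7 targets. Its log2 signal was 7.76 and 8.11 with let-7, 7.29 and 7.94 with miR-125, and 8.68 and 8.60 with mock. Replicate 2 carried more of the difference than replicate 3, mainly with miR-125 (-1.39 against -0.66). The mean difference was -0.86 ± 0.17 (unadjusted p = 0.00405, limma adjusted p = 0.175), and without mock replicate 2 it was -0.57. In replicate 1 the differences were -1.61 with let-7 and -2.26 with miR-125, more than 1.5 times those of either later replicate, and in the 10-array fit Prtg fell by 1.33 (limma adjusted p = 0.0257).

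Besides Cdkn2b, the 9 higher genes with the smallest p were Ccl11, Fgf1, Ramp2, Lmo2, Svop, Kalrn, Nme5, Rsph1 and Hmox1. Ccl11, the chemokine eotaxin, had the largest mean difference of the set, 2.39 ± 0.23 or 5.24-fold. Its log2 signal was 7.42 and 8.47 with let-7, 8.33 and 9.03 with miR-125, and 5.91 and 5.93 with mock. The mock arrays were nearly equal while the microRNA arrays were spread out, with replicate 3 above replicate 2 in both groups. A weaker second probe of Ccl11 differed by 0.70, and the mean of both probes by 1.54. Without background correction the difference of Ccl11 was 1.24, and in the deposited normalized tables it was 1.30. Fgf1, a fibroblast growth factor, had a log2 signal of 7.51 and 7.25 with let-7, 7.33 and 7.16 with miR-125, and 5.95 and 5.91 with mock, and the difference was 1.38 ± 0.11. The second, weaker probe of Fgf1 differed by 0.53. Ramp2, the accessory protein that makes the calcitonin receptor-like receptor respond to adrenomedullin, stood 1.29 ± 0.12 above mock. In replicate 1 Fgf1 and Ramp2 were well above mock with let-7 (1.62 and 1.60) and less so with miR-125 (0.17 and 0.47).

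Lmo2, a LIM-domain adaptor of transcription complexes best known from blood and endothelium, had the smallest p of all genes (3.09e-05, adjusted 0.158 in limma). Its log2 signal was 7.82 and 8.25 with let-7, 7.21 and 7.52 with miR-125, and 6.09 and 6.35 with mock. Let-7 arrays were the highest, miR-125 arrays intermediate and mock arrays lowest, with no overlap. Svop, a transporter-like protein of synaptic vesicles, showed the reverse order, 1.08 with let-7 and 1.67 with miR-125, with a mean difference of 1.37 ± 0.11. Kalrn, a guanine nucleotide exchange factor of dendritic spines, had a log2 signal of 6.08 and 5.85 with let-7, 8.03 and 7.17 with miR-125, and 5.66 and 5.03 with mock, and only 1 of its mock arrays was above background. Its difference was mostly that of miR-125 (2.26 ± 0.18, against 0.62 ± 0.18 for let-7), and with let-7 in replicate 1 it lay below mock (-0.21).

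Nme5 and Rsph1, both known from the axoneme of motile cilia, were 1.16 ± 0.13 and 1.17 ± 0.13 above mock on the log2 scale. Nme5 was stronger with let-7 (1.40 with let-7 and 0.91 with miR-125) and Rsph1 with miR-125 (0.68 with let-7 and 1.65 with miR-125). Hmox1, the inducible heme oxygenase of the oxidative stress response, had a log2 signal of 8.17 and 8.58 with let-7, 8.41 and 8.65 with miR-125, and 7.31 and 7.73 with mock, and its difference was 0.93 ± 0.11. For Nme5, Rsph1 and Hmox1 replicate 1 was above mock with both microRNAs, at 0.39 to 1.60. The sizes depended on the background correction. Without it, 17 of the 21 genes shown in the plot of signals by array, that is those named by p and Prtg, had differences more than 1.5 times smaller. Among them Fgf1 was 0.59, Nme5 0.42 and Mmp11 -0.51, while Cdkn2b, Svop, Atxn1 and Prtg stayed within 1.5 times. Likewise 16 of the 21 were more than 1.5 times smaller in the deposited normalized tables. All 10 of these higher genes passed in the 10-array fit, with limma adjusted p between 0.00713 and 0.0237.

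**Figure D2:**
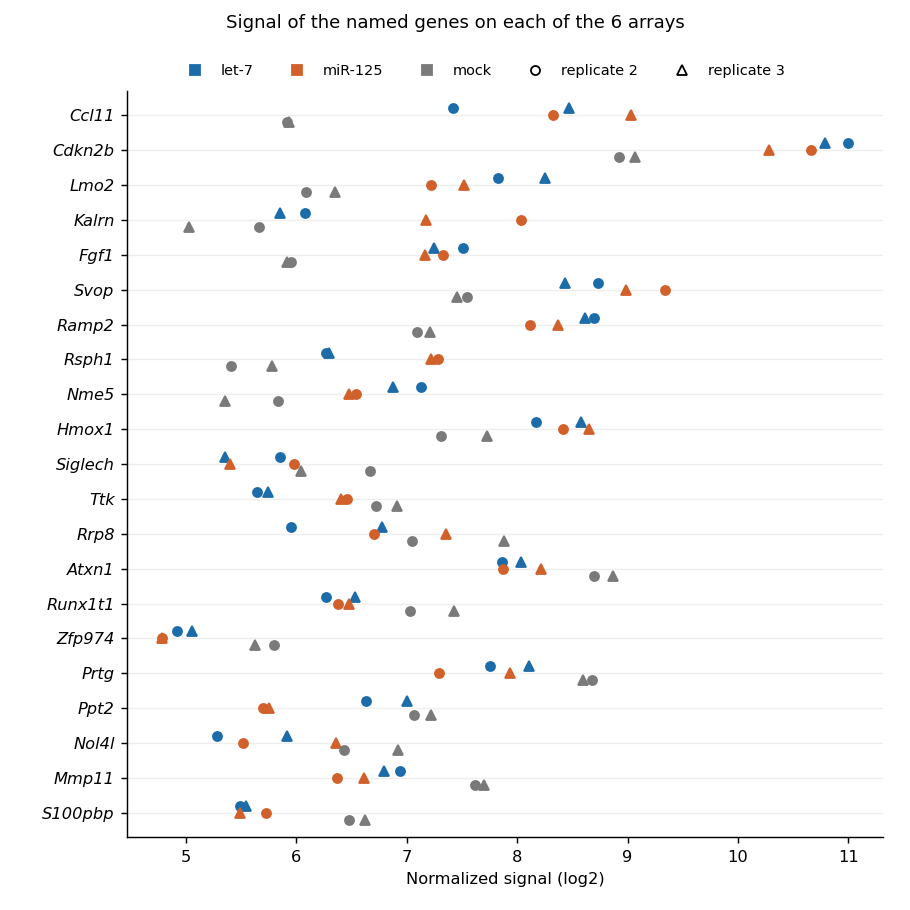
Normalized log2 signal (horizontal axis) of the 10 higher and 10 lower genes with the smallest p and of Prtg on each of the 6 arrays, ordered by mean difference. Colours give the group (let-7, miR-125, mock) and shapes the replicate. For the 10 higher genes every microRNA array lies to the right of both mock arrays, and for the lower genes other than Rrp8 every microRNA array lies to the left of both.

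The 10 lower genes with the smallest p were weaker in size and, in part, in their support. Mmp11, the matrix metalloproteinase stromelysin 3, had a log2 signal of 6.94 and 6.79 with let-7, 6.36 and 6.61 with miR-125, and 7.61 and 7.70 with mock. Its difference was -0.98 ± 0.13 (1.97-fold lower), and replicate 1 gave -1.62 with let-7 and -1.42 with miR-125. Runx1t1, a corepressor also called ETO, differed from mock by -0.81 ± 0.11, almost equally with both microRNAs (-0.83 with let-7 and -0.80 with miR-125). Its second probe was 0.44 lower. Ttk, the Mps1 kinase of the spindle checkpoint, was lower with let-7 (-1.12) than with miR-125 (-0.38), and in replicate 1 neither array of its let-7 pair was above background, with -1.06 in the miR-125 pair.

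Ppt2, a lysosomal thioesterase in the list of known miR-125 targets, had a log2 signal of 6.63 and 7.005 with let-7, 5.70 and 5.75 with miR-125, and 7.07 and 7.22 with mock. The miR-125 difference was -1.42 ± 0.14, against -0.32 ± 0.14 for let-7. In the mean of both microRNAs Ppt2 differed by -0.87, and its second, weaker probe by -0.22. Let-7 and miR-125 differed by 1.09 ± 0.14 (unadjusted p = 4.70e-04, limma adjusted p = 0.124), and replicate 1 had the same order (-0.58 with let-7 and -1.64 with miR-125). Rrp8, a nucleolar methyltransferase-like protein of ribosomal DNA silencing, was lower mainly with let-7 (-1.11 with let-7 and -0.44 with miR-125), and in replicate 1 neither array of its let-7 pair was above background, with -0.32 in the miR-125 pair. Of these 10 lower genes Atxn1, Mmp11, Ppt2 and Runx1t1 passed in the 10-array fit (limma adjusted p 0.0154 to 0.0196), Ttk had an adjusted p of 0.0527, and the other 5 had 0.0813 to 0.266.

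The other 5 were S100pbp, Nol4l, Zfp974, Siglech and Rrp8. In replicate 1 the miR-125 array lay above its mock array for S100pbp, Nol4l, Zfp974 and Siglech. S100pbp differed from mock by -0.99 ± 0.12 with groups apart, but its second probe differed by 0.02 and without mock replicate 2 the value was -0.60. Nol4l was -0.91 ± 0.12, and in replicate 1 it was -0.88 with let-7 and 0.41 with miR-125. The zinc finger gene Zfp974 was not well above background on any microRNA array and was at least 1.34-fold lower there than on the mock arrays. Siglech, a lectin of plasmacytoid dendritic cells and microglia, was -0.71 ± 0.10. Of the microglial genes, Cx3cr1 was detected on none of these arrays and Aif1 only on the miR-125 arrays.

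**Figure D3:**
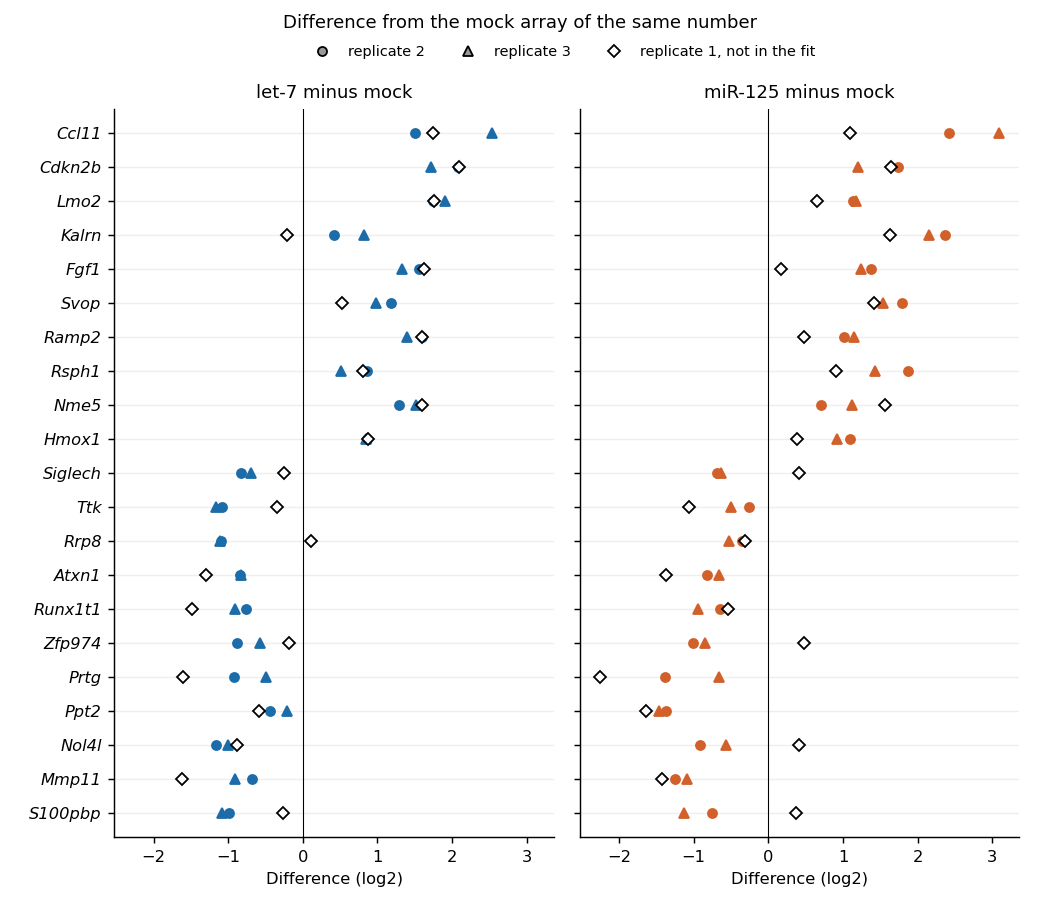
Log2 difference of each let-7 array (left) and each miR-125 array (right) from the mock array of the same replicate number, for the same 21 genes in the same order. Filled symbols are replicates 2 and 3, and open diamonds are replicate 1, which was not in the fit. All open diamonds of the 10 higher genes are above 0 except that of Kalrn with let-7, while for S100pbp, Nol4l, Zfp974 and Siglech the miR-125 diamonds lie above 0. Neither array of the let-7 pair of replicate 1 was above background for Ttk, Rrp8, Zfp974 and Siglech.

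Other members of the set of 179, named after their values were seen, had differences larger in size than those of several genes chosen by p. Upp1, uridine phosphorylase, had a log2 signal of 9.89 and 9.64 with let-7, 9.20 and 9.28 with miR-125, and 7.33 and 8.04 with mock. Its difference was 1.82 ± 0.21 and replicate 1 gave 2.77 with let-7 and 2.00 with miR-125. The kinase gene Sgk1, a target of glucocorticoid and osmotic signals, was 1.08 ± 0.15 above mock with 1.92 with let-7 and 1.40 with miR-125 in replicate 1, and Bdh2, a dehydrogenase of siderophore and ketone metabolism, was 1.41 ± 0.30 with 2.92 with let-7 and 2.34 with miR-125. The choline transporter gene Slc44a1 was 1.08 ± 0.22 and the brain metallothionein gene Mt3 0.88 ± 0.17. Upp1, Sgk1, Bdh2, Slc44a1 and Mt3 rose in the 10-array fit (limma adjusted p 0.0154 to 0.0217), which holds the arrays that gave the set. Arhgap20, which was not well above background on the mock arrays, was at least 2.42-fold higher on average, and with miR-125 in replicate 1 it was only 0.25 above mock.

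Among the 65 lower genes, the DNA-binding protein gene Arid3a had the lowest mean difference, with a log2 signal of 6.56 and 6.72 with let-7, 5.24 and 6.51 with miR-125, and 7.49 and 7.26 with mock. Its miR-125 arrays lay far apart, and the difference was -1.12 ± 0.32. Mtf2, a Polycomb-like subunit of the H3K27 methyltransferase complex, was -0.87 ± 0.13 and steadier. Hic2, a zinc finger repressor, Nr6a1, an orphan nuclear receptor of early embryos, and Rrm2, the small subunit of ribonucleotide reductase, were -0.68 ± 0.12, -0.64 ± 0.11 and -0.72 ± 0.12. Bmf, a pro-apoptotic member of the Bcl-2 family, was -0.83 ± 0.16, and Cep55, which acts in abscission, was -0.74 ± 0.11. All 7 were below mock with both microRNAs in replicate 1. They also fell in the 10-array fit (limma adjusted p 0.0193 to 0.0275), which holds the arrays that gave the set.

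The difference between let-7 and miR-125 was tested in the same fit and called 0 of 9933 genes in limma, with 2019 (20.3%) at an unadjusted p under 0.05 and a smallest adjusted p of 0.0729. In the set of 179 an unadjusted p under 0.05 for this difference was found for 20 of the 114 higher genes and 1 of the 65 lower genes. With the prior variance following the signal level, limma called this difference for 647 of 4727 genes with a mean above mock. Among genes with a mean below mock it called 654 of 5206. In the set of 179 these calls took in 11 of the 114 higher genes and 0 of the 65 lower genes. The set was chosen on these same arrays by a rule on both groups, which bears on their difference, so nothing is read from its counts. With the constant prior variance Kalrn (-1.64 ± 0.18, limma adjusted p = 0.124) leaned to miR-125, and Lmo2 (0.67 ± 0.12, 0.124) leaned to let-7. Where the prior variance followed the signal level, their limma adjusted p for this difference was 1.05e-04 and 0.0323. Fgf1 (0.13 ± 0.12), Hmox1 (-0.16 ± 0.12) and Atxn1 (-0.09 ± 0.12) showed no difference larger than 2 standard errors, which does not show that they were equal.

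Replicate 1 offers arrays that neither the choice of the 179 genes nor the fit had used, with 1 let-7 and mock pair in hybridization 2 and 1 miR-125 and mock pair in hybridization 3. Of the 114 higher genes 90 (78.9%) were higher in both pairs, against 28.8% of all 9933 genes and 46.6% of the genes with a mean difference above 0. Of the 65 lower genes 43 (66.2%) were lower in both pairs, against 30.9% of all genes and 47.5% of those with a mean difference below 0. A difference of at least 1.5-fold in both pairs was found for 49 of the higher genes (43.0%, against 2.72% of all genes). For the lower genes it was found for 19 (29.2%, against 2.40%). The shares were 5.37% of genes with a mean difference above 0 and 4.19% of those below 0. Among members detected on all 6 arrays, the shares with the same direction were 93.3% of 75 and 82.4% of 34. Among all genes so detected they were 49.2% of 3865 with a mean difference above 0 and 50.4% of 4450 below 0. With 1 pair per microRNA there is no test, and the mock arrays of replicate 1 may hold the same RNA. Gpatch3 and Nek4 were the named higher genes below mock in both pairs by more than 0.3, at -0.51 with let-7 and -0.43 with miR-125 for Gpatch3 and -0.40 with let-7 and -0.47 with miR-125 for Nek4.

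**Figure D4:**
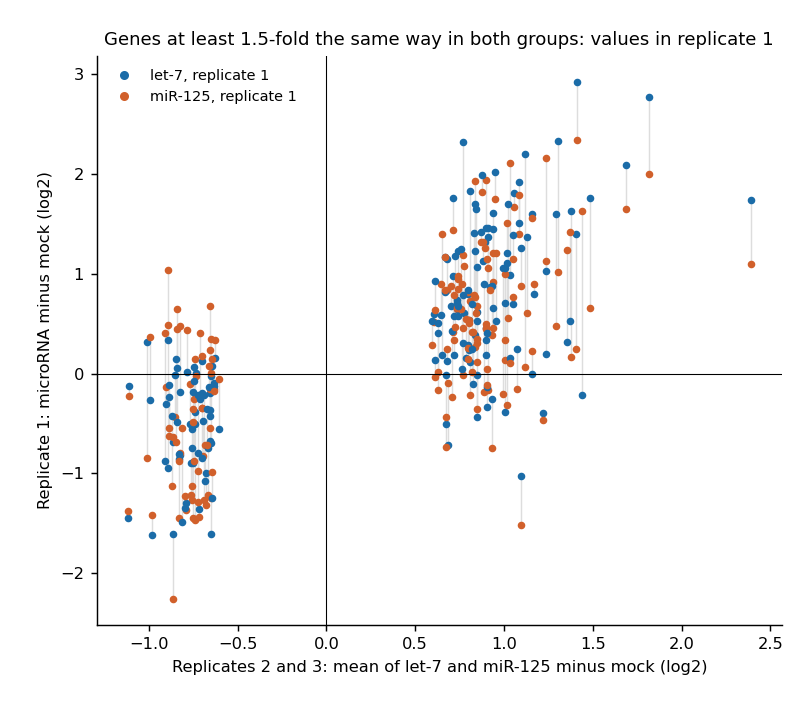
The 179 genes at least 1.5-fold the same way with both microRNAs: mean difference from mock in replicates 2 and 3 (horizontal axis, log2) and difference in replicate 1 (vertical axis, log2) for let-7 (blue) and miR-125 (orange), joined by a line for each gene. Most points of the higher genes lie above 0 (90 of 114 with both microRNAs) and most points of the lower genes below 0 (43 of 65 with both).

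Known let-7 targets and S phase and mitosis genes had the largest shares of lower members among the lists with at least 9 measured genes. Lists of genes were read against the shares of all genes at an unadjusted p under 0.05, 9.61% higher and 9.51% lower, and none of their members passed adjustment. In such bulk samples a change in the share of cells of a kind cannot be told apart from a change of RNA in each cell. Of 35 measured known let-7 targets 18 were lower and 1 higher, with a median difference of -0.27 on the log2 scale against -0.02 for all genes. Their median was -0.41 with let-7 and -0.22 with miR-125. The 10 arrays gave 18 that fell and 0 that rose (limma), against 588 and 636 of 9856 genes. Besides Arid3a, Prtg, Rrm2, Hic2 and Nr6a1, these were led by Igf2bp3, an RNA-binding protein of fetal tissue (-0.67 ± 0.11), Smarcad1, a chromatin remodeller (-0.62 ± 0.12), and Tgfbr1, a TGF-beta receptor (-0.49 ± 0.11).

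Igf2bp3 differed more with miR-125 (-0.95 ± 0.13) than with let-7 (-0.39 ± 0.13), although the list it belongs to is that of let-7. Nras was lower with let-7 (-0.53) and at -0.01 with miR-125. Map4k4 was the exception to the direction, at 0.57 ± 0.20. Of 39 measured known miR-125 targets 9 were lower and 3 higher, with a median of -0.24, and the 10 arrays gave 10 that fell and 0 that rose among 38. The medians were -0.41 with miR-125 and -0.06 with let-7. Ppt2, Bmf and Plk3, a stress-responsive kinase (-0.64 ± 0.12), led them after Arid3a, which stands in both target lists, as Arid3b does. The 3 higher ones were the pro-apoptotic gene Bak1 (0.48 ± 0.13), the phosphatase gene Ptpn18 and the receptor gene Il6ra. Ptpn18, which met the criterion of the set of 179, was not well above background on the mock arrays and was at least 1.20-fold higher. Il6ra was not above background on the mock arrays either.

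S phase and mitosis genes were lower in 17 of 33 cases and higher in 0 (unadjusted p under 0.05), with a median of -0.34, and 27 of the 33 were lower in all 4 pairs, against 18.7% of all genes. In the 10 arrays 19 of 33 fell and 0 rose. Rrm2 was followed by Nusap1, a spindle protein (-0.57 ± 0.10), Ccna2, cyclin A2 (-0.56 ± 0.10), Mcm2, a subunit of the replicative helicase (-0.53 ± 0.11), and Cdc6, a licensing factor (-0.50 ± 0.12). Nusap1 had a log2 signal of 12.03 and 11.41 with let-7, 11.73 and 10.96 with miR-125, and 12.42 and 11.78 with mock, lower with both microRNAs within each replicate, though replicate 2 was above replicate 3 in every group. Of 16 G1 cyclin and E2F genes 3 were lower and 0 higher, led by Ccne2, cyclin E2 (-0.57 ± 0.20). Of 13 cell cycle inhibitors 3 were higher and 1 lower. Beside Cdkn2b these were Cdkn1a, the p21 inhibitor (0.60 ± 0.11), and Gadd45a, a stress-induced inhibitor whose difference was larger with let-7 (2.03 with let-7 and 0.57 with miR-125).

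Markers of mature cell types had members on both sides of mock. Of 21 astrocyte markers 4 were higher and 2 lower, with a median of 0.05. The higher ones were Ntrk2, a neurotrophin receptor (0.69 ± 0.16), Ncan, the proteoglycan neurocan (0.68 ± 0.12), Acsbg1 (0.33 ± 0.10) and Gpr37l1, which was not well above background with miR-125 or mock and was at least 1.18-fold higher with let-7, and the lower ones Glul, glutamine synthetase (-0.38 ± 0.10), and Slc39a12, a zinc transporter (-0.36 ± 0.11). Ntrk2 and Ncan differed mainly with miR-125 (1.09 and 0.95, against 0.29 and 0.40 with let-7). Of 13 neuron markers 4 were higher and 1 lower. Ncam1, a neural cell adhesion molecule (0.84 ± 0.10), and Gap43, a growth cone protein (0.68 ± 0.11), met the criterion of the set of 179. The second probe of Ncam1 differed by only 0.14. Rbfox3 was -0.13 with let-7 and 1.33 with miR-125. Of 15 progenitor markers Nes, which encodes nestin, was higher (0.41 ± 0.13) and none was lower, with a median of 0.00. Oligodendrocyte lineage markers gave 2 higher and 2 lower of 9. Cspg4 (-0.84) and Mbp (-0.65) met the criterion of the set of 179 on the lower side, while the second probe of Mbp differed by 0.36.

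Among lists with at least 9 measured members, interferon response genes had the largest share of higher members, 6 of 14, with 1 lower. Isg15, Ifit3 (0.53 ± 0.12) and Usp18 (0.52 ± 0.12) had the smallest p, and Isg15, not well above background on the mock arrays, was at least 1.16-fold higher. All 3 had low signals, for example 6.02 and 5.43 with let-7, 5.99 and 5.12 with miR-125, and 5.41 and 4.81 with mock for Ifit3. In the 10 arrays 5 of 14 rose and 0 fell, and with the prior variance following the signal level 0 rose and 1 fell. Of 18 p53 target genes 4 were higher and 1 lower, led by Phlda3 (0.83 ± 0.10) and the death receptor gene Fas (0.83 ± 0.17). Of 24 TGF-beta and BMP genes 4 were higher, among them Id2 (0.72 ± 0.14), a BMP-responsive inhibitor of basic helix-loop-helix factors, and Bmp7 (0.75 ± 0.14), and 3 were lower, among them Tgfbr1. Immediate early and feedback genes gave 4 higher and 1 lower of 20, and imprinted genes 3 higher and 4 lower of 14. Cholesterol synthesis genes (17) and cytosolic ribosomal protein genes (20) gave 0 in either direction.

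**Figure D5:**
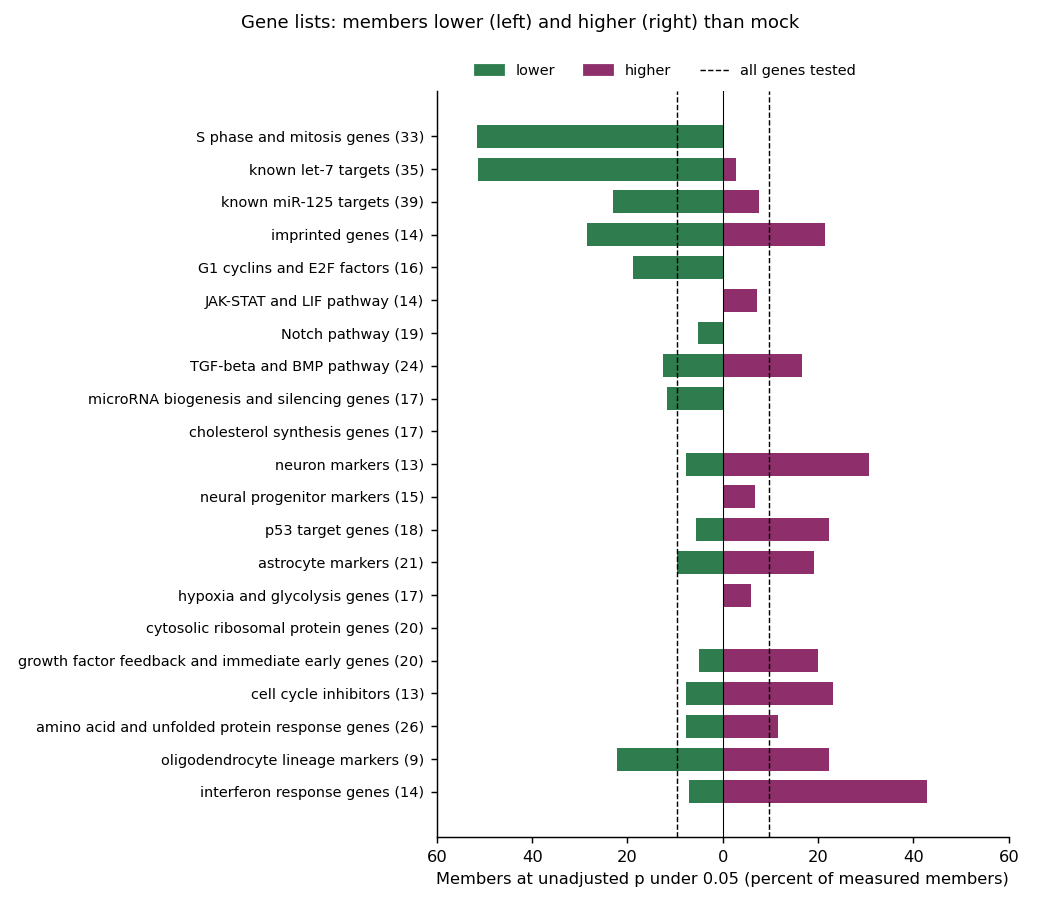
Share of measured members (percent, horizontal axis) lower (green, left) or higher (purple, right) than mock at an unadjusted p under 0.05 in the mean of let-7 and miR-125, for lists with at least 9 measured members (number in brackets). Dashed lines give the shares of all genes tested, 9.51% and 9.61%. S phase and mitosis genes (17 of 33) and known let-7 targets (18 of 35) extend farthest to the lower side.

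The same probes were read in hybridization 1, which compared undifferentiated knockout cells with undifferentiated flox/delta cells, 3 arrays each. Of 90 measured genes among the 114, 56 (62.2%) were lower in knockout than in flox/delta cells at a limma adjusted p under 0.05 and 4 (4.44%) were higher, against 26.4% and 29.4% of 8783 genes. Among all genes with a mean difference above 0 after the microRNAs, 37.6% were lower and 19.2% higher. Of 39 measured genes among the 65, 23 (59.0%) were higher in knockout cells and 4 (10.3%) lower, and among all genes with a mean difference below 0 these shares were 38.4% and 16.4%. Only knockout arrays carry the labels tamoxifen and mock, so the deletion and these treatments cannot be told apart in hybridization 1. Fgf1 was -3.33 ± 0.17 in knockout against flox/delta cells, Svop -3.11 ± 0.11 and Ramp2 -2.67 ± 0.13, all opposite to their difference after the microRNAs. Prtg was not above background on any flox/delta array and was at least 4.81-fold higher in knockout cells (limma adjusted p = 3.75e-07), and Hic2 was 2.05 higher on the log2 scale. Cdkn2b was lower in knockout cells by a smaller step (-0.52 ± 0.12, limma adjusted p = 0.00531), and Atxn1 had no call there (-0.09 ± 0.14, adjusted p = 0.636). Nol4l was lower both in knockout cells (-1.54) and after the microRNAs.

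Differentiated flox/delta cells were compared with undifferentiated ones in the same hybridization, 3 arrays each. Of 99 measured genes among the 114, 47 (47.5%) were higher and 24 (24.2%) lower in differentiated cells, against 27% and 28.5% of 8842 genes and 30.3% and 25.3% of those with a mean difference above 0. Of 40 measured genes among the 65, 12 (30.0%) were higher and 8 lower, against 23.9% and 31.5% of genes with a mean difference below 0. Mt3 (4.26), Nme5 (3.22), Bdh2 (3.22) and Cdkn2b (1.97) were higher both in differentiated cells and with the microRNAs. Upp1 (-2.53) and Fgf1 (-1.90) were lower in differentiated cells and higher with the microRNAs. Atxn1 was 2.24 ± 0.29 in differentiated against undifferentiated cells (limma adjusted p = 1.66e-04), opposite to its difference with the microRNAs, and Rrm2 (-3.84) and Nusap1 (-4.37) were lower in both.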

How the data were processed

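Total RNA from 6 samples of Dgcr8 knockout glial progenitor cells was read on Illumina bead arrays, 2 arrays each for let-7, miR-125 and mock. Per the file headers, the deposited non-normalized table gives each of 25697 probes an intensity and a detection p-value per array, with no sign in its values that background was subtracted. The normalized tables deposited for the let-7 and miR-125 comparisons look, from their values, like log2 signals after quantile normalization, and served as an alternative. The submitters' processing notes name limma without a version or a role.

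The function neqc of limma 3.58.1 (R 4.3.3, offset 16) corrected the 6 arrays for background, quantile normalized them and took log2. A probe was kept when detected (p under 0.05) on at least 2 of the 6 arrays, which left 13615 probes, and the kept probe of highest mean stood for its gene. The annotation gave 1 symbol to 23978 probes and none to 1719, and 23962 were updated through RefSeq of GRCm38.p6. The 9933 genes, unnamed probes included, were fitted with limma (lmFit and eBayes, two-sided, constant prior variance with 3.00 prior and 2 residual degrees of freedom), and p-values were adjusted by Benjamini-Hochberg over all of them. Differences are log2, with standard errors from this fit. The fit was checked on simulated data.

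The replicate number was a block because the labels make it a separate tamoxifen treatment. The difference of replicate 2 from replicate 3 correlated over genes at 0.438 between let-7 and miR-125, 0.345 between let-7 and mock, and 0.304 between miR-125 and mock. Where a probe was not well above background on all arrays of a group, its fold was computed against the lowest detected signal and given as "at least". Array number limits the precision.

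With under 5 calls, the rule named the 10 genes with the smallest p in each direction, with Prtg, Cdkn2b, Atxn1 and Dgcr8, and other kept probes over 1 log2 unit away. The genes and the 26 lists were chosen with earlier results of these data known. The fold criterion of 1.5 and the readings of hybridization 1 were added to the planned tests. No set test was run. Arrays of replicate 1 were normalized pairwise, and those of hybridization 1 in limma fits of their own, at detection on at least 3 arrays.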

Additional observations from a re-analysis of the deposited data

How the results depend on the processing

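The fit had 2 arrays a group. The count of 0 genes called in limma (1900 at an unadjusted p under 0.05) held with no replicate block (0 called, 1095 at an unadjusted p under 0.05), median scaling, detection on at least 3 arrays, no detection filter, the mean of all kept probes and robust moderation. It also held in all 6 fits that left out 1 array, with 1240 to 1627 genes at an unadjusted p under 0.05 and smallest adjusted p of 0.186 to 0.315. Calls appeared without background correction (979, of them 907 the same way in all 4 pairs), with an offset of 50 (38 and 37), with detection on all 6 arrays (30 and 29), with a prior variance following the signal level (1105 and 1014), with 8 arrays of hybridization 3 (2 and 2) and with 10 arrays (1246 and 1131). The causes were not tested. The replicate block changed no other call, for let-7, miR-125 or their difference. The 179 genes at least 1.5-fold with both microRNAs became 14 without background correction, 63 with an offset of 50, both of which shrink differences of dim probes, and 109 when fewer genes were tested, those detected on all 6 arrays. Elsewhere they numbered 163 to 203. Detected probes had 3.37 to 3.64 times the background signal.

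For the 22 genes named by the rule, 390 values with a test were computed under other settings. Of these 308 kept direction and side of the threshold, 78 passed it in addition, and 4 turned, all of Dgcr8, whose difference of 0.07 was -0.043 with 8 arrays, -0.18 with 10 arrays and -0.14 to 0.28 with 1 array left out. Settings that changed only the block, the moderation of the variance or the detection filter left the differences themselves unchanged, so no direction could turn there. The 22 values from the deposited normalized tables, which have no test, kept their direction, and 19 moved by over 1 SD of replicates 2 and 3. Besides the settings without background correction, differences were more than 1.5 times smaller for S100pbp, Zfp974 and Siglech with an offset of 50, for Zfp974 and Siglech with 8 arrays, for those 2, S100pbp and Rrp8 with 10 arrays, for Ccl11, S100pbp and Ppt2 with the mean of all kept probes, and for S100pbp and Prtg without mock replicate 2. Prtg was more than 1.5 times larger with 10 arrays.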

Other observations

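In the 10-array fit the mean of both microRNAs also called genes that 1 of them left near mock, which are the opposite case of a shared shift. The 12 named genes with the largest gap between both groups, among those with 1 group under 0.2 on the log2 scale, were picked by a rule set after the data were seen. Rasl11a, a small GTPase of the Ras family, was 2.06 higher with miR-125 (limma adjusted p = 0.00264) and 0.01 with let-7 (0.967). A3galt2, a galactosyltransferase gene, was 2.12 with miR-125 and -0.09 with let-7, and Lims2, an adaptor of focal adhesions listed here as an oligodendrocyte marker, was not well above background with let-7 or mock in replicates 2 and 3 and at least 1.59-fold higher with miR-125 there. Bok, a member of the Bcl-2 family, was 1.28 with miR-125 and -0.03 with let-7. The reverse was seen for Cavin4, a protein of muscle caveolae, which was not well above background with let-7 in replicates 2 and 3 and at least 2.03-fold lower than mock there, and for Hecw2, a ubiquitin ligase, not well above background with miR-125 or mock and at least 1.38-fold higher with let-7.

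The 10 arrays include replicate 1, so its values took part in the choice of these genes and are given as a description. In replicate 1 Rasl11a was 0.02 with let-7 and 1.85 with miR-125, A3galt2 was -0.22 and 2.35, and Cavin4 was -0.99 and -0.19. Of the 1224 genes called in that fit, 18 had opposite signs with let-7 and miR-125.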
